A study of Homo sapiens with 6 samples.

Results

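FHIT, WWOX, IMMP2L and MACROD2 are 4 of the longest human genes, and each lies over a chromosomal fragile site. Their acetylation of lysine 27 of histone H3 (H3K27ac) was read from lists of broad ChIP-seq peaks in CCRF-CEM cells, a widely used line from a human T lymphoblast leukemia. Every deposited peak that overlapped 1 of the 4 gene spans on hg19 by at least 1 bp was taken, which gave 1914 of 1440888 peaks over 6 libraries. The libraries were SLFN11-knockout cells given the vehicle DMSO (control) or 100 nM camptothecin for 2 h or 4 h, and parental cells given the same 3 conditions. Camptothecin traps topoisomerase I on DNA, and SLFN11 is known to block replication in cells under such stress. The knockout libraries carry the code CB45, and how many clones it stands for is not given in the sources used here. The labels give camptothecin times of 2 h and 4 h, while their chromatin protocol mentions 4 h alone. With 1 library a group there was no replicate check, so no p-value, standard error or test between groups was computed. Intervals below are 95% Wilson intervals of a share, or intervals of a ratio of 2 shares. They cover counting error only, and peaks of 1 library are not replicates of a condition. SLFN11 itself and the markers of T lymphoblasts were not checked, since no hg19 annotation was used here.

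Common fragile sites are stretches that break or show gaps when replication is slowed. They often lie in very long genes that replicate late and hold few replication origins. H3K27ac is found at active promoters and enhancers, so in such a gene it is usually confined to the promoter and to scattered sites in the long introns. FHIT, at FRA3B, encodes a hydrolase of diadenosine triphosphate, and WWOX, at FRA16D, encodes an oxidoreductase with WW domains. Both are known as tumour suppressors and are often deleted in cancers. IMMP2L encodes a subunit of the inner mitochondrial membrane peptidase, and MACROD2 encodes a macrodomain enzyme that removes ADP-ribose from proteins.

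On hg19, FHIT spans chr3:59735000-61238000 (minus strand), WWOX chr16:78133000-79247000 (plus strand), IMMP2L chr7:110303000-111203000 (minus strand) and MACROD2 chr20:13976000-16034000 (plus strand). The spans run over 0.9 to 2.058 Mb and add to 5.575 Mb, or 0.184% of chromosomes 1 to 22 and X. Each differs from the length of the RefSeq gene on GRCh38 by at most 1.176 kb. The first 5 kb at the 5′ end of each span was called the promoter end and the rest the body. No exon map of hg19 was used, so body peaks were not split into exonic and intronic. By gene name, RefSeq places the protein-coding genes LRRN3 within IMMP2L and FLRT3 within MACROD2, and peaks were not assigned to them.

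The promoters are shown because 3 of these genes carried a strong acetylated promoter end and MACROD2 did not. RefSeq (GRCh38.p14) holds promoters of all 4 genes, and the first start of each is shown, from 250 bases before to 50 after the start. They are FHIT at chr3:61251403-61251702 (minus strand), WWOX at chr16:78099404-78099703 (plus strand), IMMP2L at chr7:111562443-111562742 (minus strand) and MACROD2 at chr20:13995266-13995565 (plus strand). They were matched to the hg19 spans by gene name and not by coordinates. Capitals mark matches on either strand to 4 motifs. The GC box was searched as GGGCGG. The YY1 core, named for a zinc finger factor that binds many promoters, was searched as CCATNTTG. The CCAAT box was searched by the letters of its name, and the TATA box as TATAAA.
FHIT: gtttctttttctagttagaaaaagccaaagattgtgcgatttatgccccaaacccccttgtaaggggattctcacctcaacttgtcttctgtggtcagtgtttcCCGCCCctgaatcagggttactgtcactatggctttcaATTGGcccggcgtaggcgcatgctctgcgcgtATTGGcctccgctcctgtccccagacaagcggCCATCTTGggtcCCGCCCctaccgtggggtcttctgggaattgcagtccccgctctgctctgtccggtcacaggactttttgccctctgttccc
WWOX: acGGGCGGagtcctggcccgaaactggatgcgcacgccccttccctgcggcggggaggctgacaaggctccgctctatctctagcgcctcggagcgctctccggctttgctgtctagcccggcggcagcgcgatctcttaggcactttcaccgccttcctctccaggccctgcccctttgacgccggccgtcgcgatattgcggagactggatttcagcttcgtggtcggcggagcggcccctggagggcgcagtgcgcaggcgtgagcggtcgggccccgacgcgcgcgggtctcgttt
IMMP2L: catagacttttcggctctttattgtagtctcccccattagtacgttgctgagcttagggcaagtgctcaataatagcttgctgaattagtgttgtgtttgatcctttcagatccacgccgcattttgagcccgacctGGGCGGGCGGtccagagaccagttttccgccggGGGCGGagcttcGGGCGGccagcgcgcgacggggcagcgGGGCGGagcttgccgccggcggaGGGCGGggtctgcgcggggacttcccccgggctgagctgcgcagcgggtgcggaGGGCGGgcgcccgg
MACROD2: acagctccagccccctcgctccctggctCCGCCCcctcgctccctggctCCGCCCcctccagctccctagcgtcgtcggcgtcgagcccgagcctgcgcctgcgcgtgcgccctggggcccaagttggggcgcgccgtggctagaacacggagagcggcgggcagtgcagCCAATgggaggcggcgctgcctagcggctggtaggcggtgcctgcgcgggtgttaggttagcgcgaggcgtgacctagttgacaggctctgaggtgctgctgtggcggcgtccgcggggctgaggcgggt

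The 4 promoters were unlike in base composition. MACROD2 had the highest GC content at 73.3%, followed by WWOX at 69% and IMMP2L at 65%, and FHIT had 55%, against a median of 58.7% over 35114 RefSeq promoters. CG dinucleotides numbered 38 in WWOX, 34 in MACROD2, 31 in IMMP2L and 13 in FHIT, against a median of 14. The IMMP2L promoter held 7 GC boxes, of which 2 overlap. FHIT held 2 GC boxes, 2 CCAAT matches and 1 CCATNTTG match, MACROD2 held 2 GC boxes and 1 CCAAT match, and WWOX held 1 GC box. TATAAA was in none of these 4 windows. Over all RefSeq promoters, GGGCGG was in 45.0%, CCAAT in 34.6%, CCATNTTG in 5.20% and TATAAA in 11.5%. Of the 4 first starts, that of highest GC content, MACROD2, was the one without a strong peak. The table also holds a second start of FHIT, 1.17 Mb inside the gene with 44% GC and 0 CG, and one of MACROD2, 1.201 Mb inside with 43% GC and 1 CG. These were not matched to peaks, since their build differs from that of the files.

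The promoter ends fell into a strongly acetylated set of FHIT, WWOX and IMMP2L on one side and MACROD2, weak or unmarked, on the other. FHIT, WWOX and IMMP2L each had 1 peak at the promoter end in all 6 libraries, and each of these peaks was among the 30000 of its library with the smallest p. Its fold, as deposited by the authors, is a ratio of read pileup to the background nearby.
IMMP2L had the strongest promoter peak of the 4 genes in every library. Its fold was 7.63 in knockout control, 8.22 in knockout 2 h and 6.34 in knockout 4 h cells, and 7.90 in parental control, 7.41 in parental 2 h and 8.12 in parental 4 h cells. In parental control cells the peak lay at chr7:111201708-111202731. The IMMP2L −log10 p was 27.2, 34.5 and 10.7 in knockout control, 2 h and 4 h cells, and 29.6, 24.4 and 33.1 in parental control, 2 h and 4 h cells. The lowest of these was in knockout 4 h cells, and the other 5 overlapped between the genotypes.
The WWOX promoter peak, at chr16:78133060-78134492 in parental control cells, had a fold of 6.24, 6.14 and 4.92 in knockout control, 2 h and 4 h cells, and 5.27, 5.51 and 5.13 in parental control, 2 h and 4 h cells. Its −log10 p was 19.9, 22.3 and 7.10 in knockout control, 2 h and 4 h cells, and 13.6, 14.3 and 14.7 in parental control, 2 h and 4 h cells. Knockout control and 2 h cells lay above all 3 parental libraries on both scales, and knockout 4 h cells below them.
The FHIT promoter peak, at chr3:61235767-61237338 in parental control cells, had a fold of 6.09, 6.87 and 4.31 in knockout control, 2 h and 4 h cells, and 4.998, 5.65 and 6.74 in parental control, 2 h and 4 h cells. Its −log10 p was 11.8, 16.6 and 5.66 in knockout control, 2 h and 4 h cells, and 7.65, 9.03 and 12.5 in parental control, 2 h and 4 h cells. The genotypes overlapped, and in the parental series both values were higher at each later time. In the 5 libraries other than knockout 4 h, each of these 3 promoter peaks ranked ahead of every body peak of its gene. In knockout 4 h cells body peaks led, at place 4717 against 6209 in WWOX and 8745 against 9961 in FHIT. By fold, a WWOX body peak was ahead in knockout control (6.36), 2 h (6.53) and 4 h (5.32) and parental control (5.78) cells. A FHIT body peak was ahead in knockout 4 h (4.45) and parental control (5.25) cells, and an IMMP2L one in none.

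**Figure D1:**
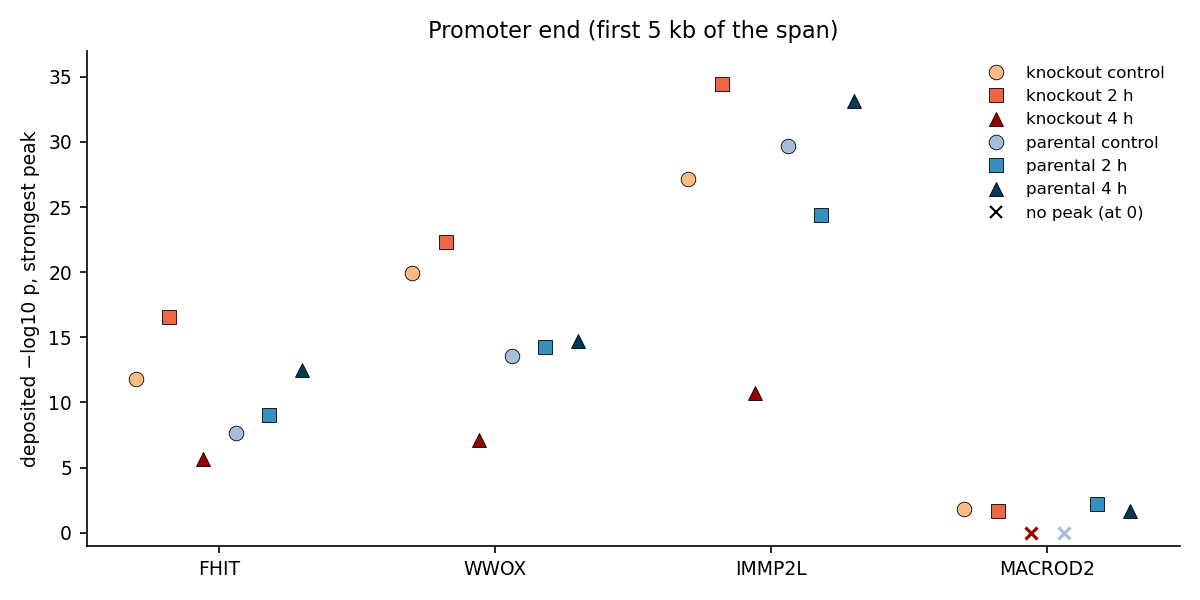
Deposited −log10 p (vertical axis) of the strongest peak in the first 5 kb of each gene, by library, with knockout libraries in orange to red and parental libraries in blue, and a cross at 0 where no peak was listed. IMMP2L, WWOX and FHIT have a peak in all 6 libraries, from 5.66 to 34.5, while MACROD2 has weak peaks or none.

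MACROD2 had no promoter-end peak in knockout 4 h or parental control cells. In the other libraries its promoter-end peaks had a fold of 1.77 to 2.24, and the best of them stood at place 93217 of its list, in parental 2 h cells. Those of knockout 2 h cells and the stronger of knockout control cells lay over 3 kb inside the gene, at chr20:13979399-13979598 and chr20:13979177-13979599. Within 5 kb upstream of the spans, MACROD2 had 1 peak in each of 4 libraries, with a fold of 2.03, 1.75 and 1.85 in knockout control, 2 h and 4 h cells and 2.11 in parental 4 h cells. FHIT and IMMP2L had 1 each there in knockout 4 h cells, with a fold of 1.49 and 1.703, and WWOX had none in any library.

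Values were set side by side between lists by rank. For each library other than knockout 4 h, the 30000 peaks of smallest p were taken, and they merged into 51668 regions, and each library's regions were ranked by −log10 p, with 1 the strongest. The knockout 4 h list was left out of the merge because it stood apart. It held 402427 peaks on chromosomes 1 to 22 and X, against 171713 to 267480 in the other 5 libraries, and 56.9% of its peaks were at the smallest width of 200 bp, against 24.5 to 26.5%. Its peaks with a −log10 q of at least 5 numbered 5467, against 12656 to 15215. Read depth is not in these files. The part of the longer list in the results below was not tested, and results are given with and without that library.

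A region was counted as moved between 2 libraries when its ranks differed by over 10% of all places, which is 5167 places. None of the 3 promoter ends moved by this rule in any of the 7 comparisons, and the widest gap was the 4406 places by which FHIT ranked higher in parental 4 h than in parental control cells. The share of all regions that moved was 48.6% for parental 2 h over control, 46% for parental 4 h over control, 40.9% for knockout 2 h over control, 45% for knockout over parental control and 49.7% for knockout over parental 2 h. With knockout 4 h cells it was 58.6% over knockout control and 59.2% over parental 4 h cells. Among the 9781 regions at least as strong as the weakest of these promoter ends, it was 0.624% for parental 2 h over control, 0.562% for parental 4 h over control, 0.317% for knockout 2 h over control, 0.726% for knockout over parental control and 1.03% for knockout over parental 2 h. With knockout 4 h cells it was 16.3% over knockout control and 17.5% over parental 4 h cells. Regions this strong seldom moved, so the steady ranks of the 3 promoter ends were no more than the level of their class.
IMMP2L was at rank 2780, 1754 and 2333 in knockout control, 2 h and 4 h cells, and 2050, 2934 and 1684 in parental control, 2 h and 4 h cells. WWOX was at rank 5270, 5121 and 6175 in knockout control, 2 h and 4 h cells, and 8318, 7196 and 7690 in parental control, 2 h and 4 h cells. FHIT was at rank 9712, 7670 and 9686 in knockout control, 2 h and 4 h cells, and 13173, 10632 and 8767 in parental control, 2 h and 4 h cells. By rank, the order IMMP2L, WWOX, FHIT held in every library. WWOX ranked higher in each knockout library than in all 3 parental libraries, by less than the 10% rule, and the low −log10 p of the knockout 4 h promoter peaks was not a low rank.

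The 4 gene bodies together held a smaller share of the peaks than of the length of the chromosomes. The 4 bodies make up 0.183% of chromosomes 1 to 22 and X. They held 374, 322 and 638 peaks in knockout control, 2 h and 4 h cells, and 185, 180 and 192 peaks in parental control, 2 h and 4 h cells. This was 0.140% (0.126 to 0.155%) of the list in knockout control, 0.148% (0.132 to 0.165%) in knockout 2 h and 0.159% (0.147 to 0.171%) in knockout 4 h cells. It was 0.108% (0.0933 to 0.124%) in parental control, 0.101% (0.0877 to 0.117%) in parental 2 h and 0.108% (0.0936 to 0.124%) in parental 4 h cells. All 6 intervals lay below the share of length, and those of the 3 knockout libraries lay above those of the 3 parental ones. Among the 30000 peaks with the smallest p, the bodies held 34, 28 and 34 peaks in knockout control, 2 h and 4 h cells, and 33, 26 and 21 in parental control, 2 h and 4 h cells. The genotypes overlapped in these stronger peaks and were closest in control and 2 h cells.
With a −log10 q of at least 5, the bodies held 5, 10 and 2 peaks in knockout control, 2 h and 4 h cells, and 4, 2 and 1 in parental control, 2 h and 4 h cells.

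WWOX and MACROD2 had the densest bodies in all 6 libraries, and IMMP2L and FHIT the sparsest. Of 1 Mb tiles of the chromosomes, 48.0 to 66.5% were sparser than the WWOX body over the 6 libraries and 43.0 to 56.4% were sparser than that of MACROD2, so both lay near the median tile. For IMMP2L the share was 23.8 to 34.8%, and for FHIT it was 32.9 to 35.4% in knockout libraries and 19.7 to 22.8% in parental ones.
The WWOX body held 86.6, 88.4 and 169 peaks per Mb in knockout control, 2 h and 4 h cells, and 43.3, 46.0 and 40.6 per Mb in parental control, 2 h and 4 h cells. Relative to the peaks per Mb of the whole list, that was 0.982, 1.23 and 1.27 times in knockout control, 2 h and 4 h cells, and 0.765, 0.787 and 0.691 times in parental control, 2 h and 4 h cells. The gene was thus near or above the genome level in the knockout and below it in the parental lists. The counting intervals of parental control and 2 h cells held that level. But chromosome 16 is peak-dense, and against that chromosome the WWOX body was at 0.767, 0.938 and 1.04 in knockout control, 2 h and 4 h cells and at 0.501 to 0.567 in the parental libraries.
The MACROD2 body held 83.8, 70.1 and 113 peaks per Mb in knockout control, 2 h and 4 h cells, and 42.9, 39.0 and 47.2 per Mb in parental control, 2 h and 4 h cells. Against the genome this was 0.951, 0.976 and 0.856 times in knockout control, 2 h and 4 h cells, and 0.758, 0.667 and 0.805 times in parental control, 2 h and 4 h cells. MACROD2, the longest of the 4 genes, thus had almost no promoter mark but a body denser than those of FHIT and IMMP2L in all 6 libraries. Against its own chromosome 20 the MACROD2 body was at 0.574, 0.584 and 0.605 in knockout control, 2 h and 4 h cells, and at 0.430, 0.370 and 0.449 in parental control, 2 h and 4 h cells.
The FHIT body held 48.7, 36.7 and 94.1 peaks per Mb in knockout control, 2 h and 4 h cells, and 18.0, 18.0 and 17.4 per Mb in parental control, 2 h and 4 h cells. Against the genome this was 0.553, 0.511 and 0.710 times in knockout control, 2 h and 4 h cells, and 0.319, 0.308 and 0.296 times in parental control, 2 h and 4 h cells. The 3 parental values of FHIT were close together and all below the knockout ones.
The IMMP2L body held 36.9, 27.9 and 86.0 peaks per Mb in knockout control, 2 h and 4 h cells, and 24.6, 24.6 and 26.8 per Mb in parental control, 2 h and 4 h cells. The gene with the strongest promoter end thus had a sparse body, at 0.389 to 0.457 of the genome level in the 5 libraries other than knockout 4 h, where it was at 0.649.

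**Figure D2:**
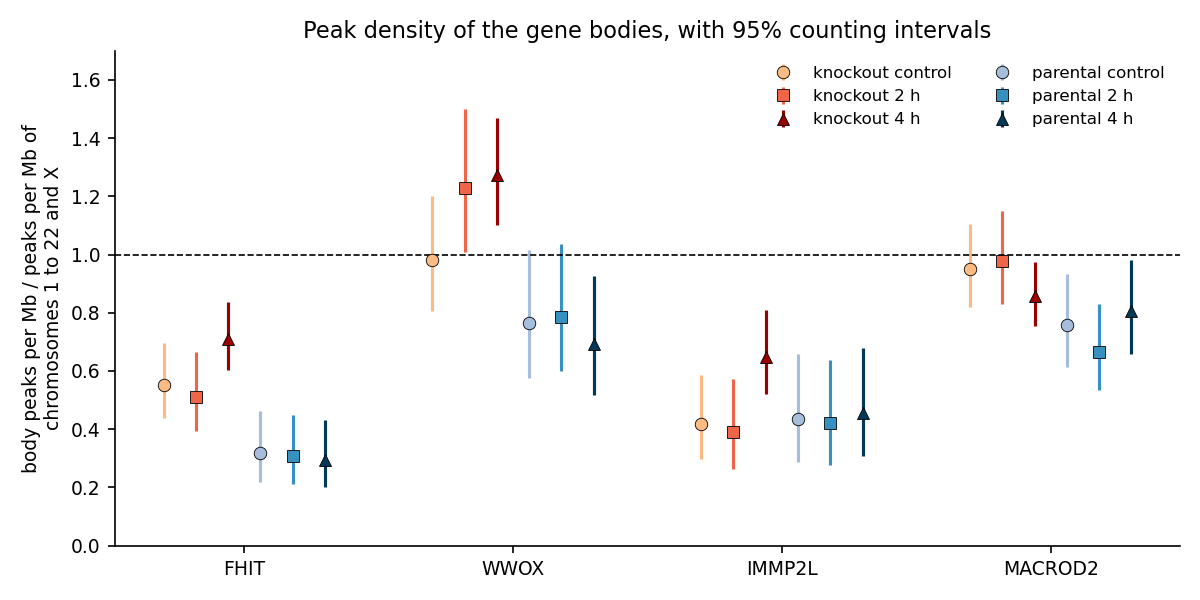
Body peaks per Mb divided by peaks per Mb of chromosomes 1 to 22 and X (vertical axis), by gene and library, with 95% counting intervals from the share of peaks and a dashed line at the genome level. FHIT, IMMP2L and MACROD2 lie below 1 in every library, and WWOX reaches 1.27 in knockout 4 h cells.

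Each gene was cut into 10 equal stretches, and only MACROD2 had the same densest stretch in every library. For FHIT and IMMP2L the densest stretch differed between libraries, and in the parental lists it held at most 6 peaks. MACROD2 held its most peaks in the 6th of 10 equal stretches from the promoter end in all 6 libraries, with 32, 27 and 35 peaks in knockout control, 2 h and 4 h cells and 23, 16 and 19 in parental control, 2 h and 4 h cells. The first stretch of WWOX held 8, 10 and 9 peaks in parental control, 2 h and 4 h cells, its most in control and 2 h cells and level with the 4th at 4 h. In knockout control cells the 5th and the 9th stretch of WWOX were level at 14 peaks each, in knockout 2 h cells the 9th held the most at 23, and in knockout 4 h cells the 5th held 25 and the 9th 24.
Of the 4 genes, IMMP2L had the widest stretch that was empty in the 5 libraries other than knockout 4 h. No peak lay in chr7:110384278-110522472, which is 138 kb, in any of the 5 libraries other than knockout 4 h, and 74.0 kb of it held none in all 6. In FHIT, the parental libraries listed no peak over the 176 kb of chr3:60520238-60696528, of which 73.3 kb was also empty in knockout control and 2 h cells. In FHIT the widest stretch without a peak in any library was 38.8 kb, in MACROD2 37.5 kb and in WWOX 25.3 kb.

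**Figure D3:**
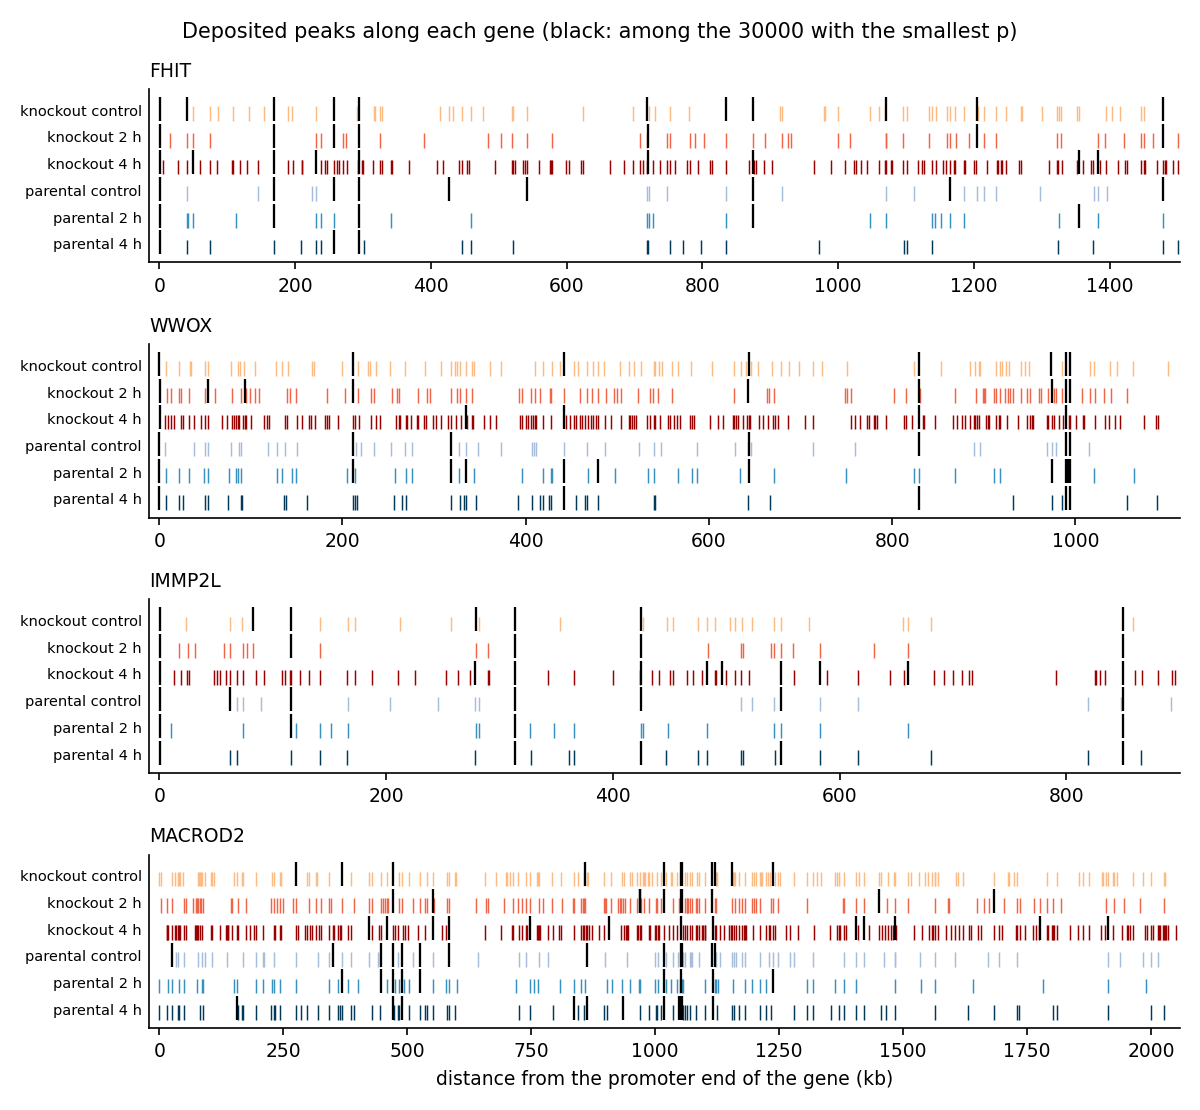
Deposited peaks along each gene by distance from the promoter end in kb (horizontal axis), with 1 line of ticks for each library and black ticks for peaks among the 30000 with the smallest p. The cluster in MACROD2 near 1052 kb, the first peak of FHIT, WWOX and IMMP2L, and the empty stretch of IMMP2L past 681 kb recur in the lists, and the knockout 4 h line has the most ticks.

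Between genotypes, the share of the list that lay in a body was higher in knockout cells for FHIT, WWOX and MACROD2 at every time. For WWOX and MACROD2 some of the intervals of these ratios held 1. The share did not have the same direction at every time for IMMP2L. As a background, 1 Mb tiles of the chromosomes were compared in the same way, and a gene or tile was counted as changed when its share differed by over 1.5 times. The share of tiles past 1.5 times higher was 9.33% for knockout over parental control cells, 4.17% for knockout over parental 2 h cells and 36.8% for knockout over parental 4 h cells.
The FHIT ratio was 1.74 (1.12 to 2.70) for knockout over parental control, 1.66 (1.05 to 2.63) for knockout over parental 2 h and 2.40 (1.58 to 3.65) for knockout over parental 4 h cells. It rests on 73, 55 and 141 peaks in knockout control, 2 h and 4 h cells and 27, 27 and 26 in parental control, 2 h and 4 h cells. FHIT was the single gene of the 4 past 1.5 times higher at all 3 conditions. Among the 30000 peaks with the smallest p, the FHIT ratio was 1.25 (0.493 to 3.17) for knockout over parental control, 1.5 (0.423 to 5.32) for knockout over parental 2 h and 4.00 (0.849 to 18.8) for knockout over parental 4 h cells, so only the last was past 1.5 times and all 3 intervals held 1. These rest on 10, 6 and 8 peaks in knockout control, 2 h and 4 h cells, and 8, 4 and 2 in parental control, 2 h and 4 h cells.
The WWOX ratio was 1.28 for knockout over parental control, 1.56 for knockout over parental 2 h and 1.84 for knockout over parental 4 h cells. For MACROD2 the same ratios were 1.25, 1.46 and 1.06, none past the threshold. For IMMP2L they were 0.963, 0.924 and 1.42, on both sides of 1.
Over the 4 bodies together the ratio was 1.30 (1.09 to 1.55) for knockout over parental control, 1.45 (1.21 to 1.75) for knockout over parental 2 h and 1.47 (1.25 to 1.73) for knockout over parental 4 h cells. Among the 30000 peaks with the smallest p it was 1.03 (0.638 to 1.66) for knockout over parental control, 1.08 (0.631 to 1.84) for knockout over parental 2 h and 1.62 (0.939 to 2.79) for knockout over parental 4 h cells. These last intervals all held 1.
The genotype ratio differed with how peak-dense a stretch was, by a grouping chosen after seeing the data. Tiles were put into 3 equal classes by their mean share of peaks over the libraries, and FHIT and IMMP2L have the density of the sparsest class while WWOX and MACROD2 have that of the middle one. In the sparsest class the median ratio of 902 tiles was 1.23 for knockout over parental control, with 19.2% past 1.5 times higher, 1.00 for knockout over parental 2 h, with 4.99%, and 1.87 for knockout over parental 4 h, with 82.0%. In the middle class the medians were 1.11, 1.09 and 1.25 for the same 3 comparisons, with 7.87%, 6.65% and 22.5% past 1.5 times higher, which is the background for the WWOX ratios. In the densest class the medians were 0.921, 0.970 and 0.782 for the same 3 comparisons. At 4 h the FHIT ratio lay within the 1.26 to 2.87 between the 5th and 95th percentiles of the sparsest class, and IMMP2L was below its median. In control cells FHIT lay within its 0.856 to 1.80, and at 2 h FHIT lay above the 95th percentile. Of all tiles, 96.7% had a lower ratio than FHIT for knockout over parental control, 98.3% for knockout over parental 2 h and 93.5% for knockout over parental 4 h cells.

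Few body shares differed by over 1.5 times between camptothecin and control cells. In parental cells at 2 h no gene passed it, against 4.73% of tiles in either direction, and the ratios ran from 0.880 for MACROD2 to 1.03 for WWOX. In parental cells at 4 h again none passed it, against 3.43% of tiles in either direction, and the 4 genes lay between 0.904 and 1.06. Over the 4 bodies the parental 4 h ratio to control was 1.00 (0.817 to 1.22). Among the 30000 peaks with the smallest p it was 0.636, from 21 peaks in 4 h and 33 in control cells, with a 95% interval that held 1. Single genes had 2 to 13 body peaks a library in this set, and some were then past 1.5 times. For parental 2 h over control the ratio was 0.5 for FHIT, 0.5 for IMMP2L and 1.67 for WWOX, and for parental 4 h over control it was 0.25 for FHIT. All of these intervals held 1.
In knockout cells at 2 h no gene passed 1.5 times, against 7.89% of tiles in either direction. WWOX had the highest ratio at 1.25 and FHIT the lowest at 0.924. FHIT was at 0.6 (0.218 to 1.65) among the 30000 peaks with the smallest p. In knockout cells at 4 h, IMMP2L was at 1.55 (1.03 to 2.33), against 20.9% of all tiles and 51.0% of the sparsest class past 1.5 times higher. A share near that background is not a result about the gene, and 67.5% of the IMMP2L body peaks of knockout 4 h cells were 200 bp wide, against 21.2% in knockout control cells. With the 30000 peaks of smallest p alone, no gene was past 1.5 times higher for knockout 4 h over control. IMMP2L was just under it at 1.498 (0.533 to 4.21), from 9 and 6 peaks, and WWOX was at 0.571 (0.167 to 1.95).

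**Figure D4:**
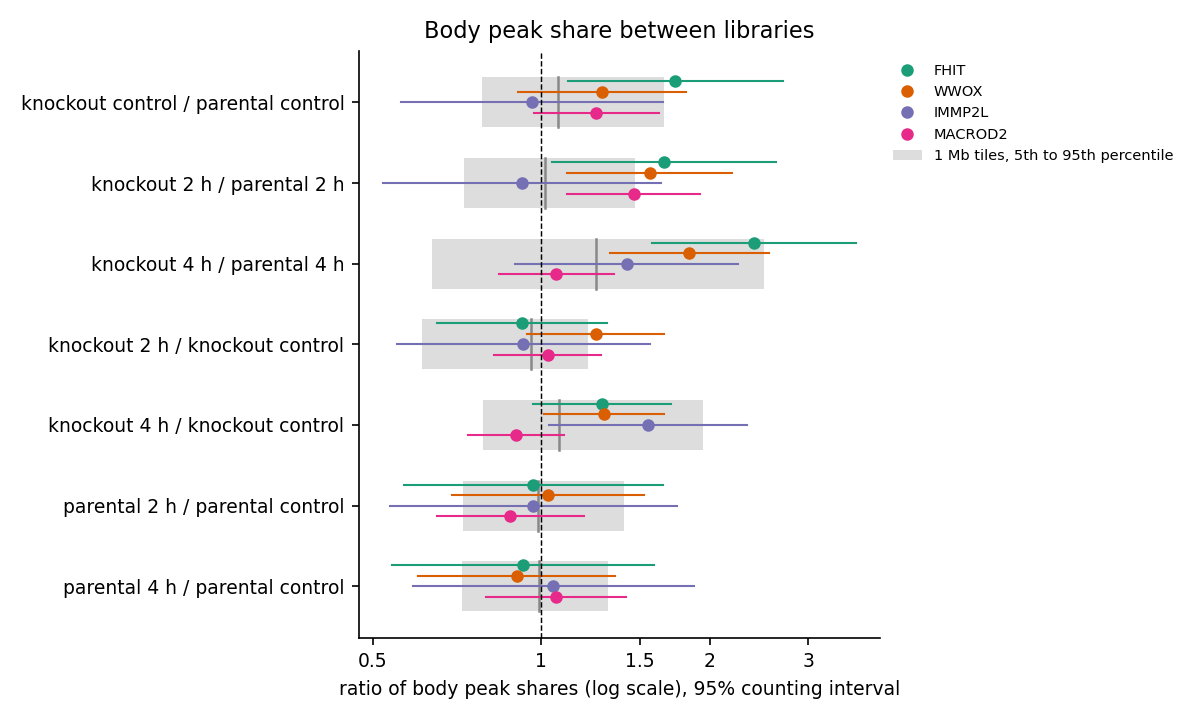
Ratio of body peak shares between 2 libraries (horizontal axis, log scale) for each gene, with 95% counting intervals, over the 5th to 95th percentile of 1 Mb tiles in grey with their median. FHIT lies at 1.66 to 2.40 in the 3 knockout over parental comparisons, and in the parental camptothecin comparisons the ratios lie from 0.880 to 1.06.

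Of the 51668 regions, 62 lay in the bodies. Of these, 34 of 62 (54.8%, 42.5 to 66.6%) were listed with a peak in all 6 libraries, against 71.1% of all regions and 61.3% of the 38565 regions no stronger than the best body region. The last value lies within the interval, so the share of the bodies is not a result about the genes. WWOX had 10 of 12 body regions in all 6 libraries, IMMP2L 6 of 8, FHIT 8 of 15 and MACROD2 10 of 27. The intervals were 55.2 to 95.3% for WWOX, 40.9 to 92.9% for IMMP2L and 30.1 to 75.2% for FHIT. Each of these held the 61.3%, so they are not a result about those genes. The interval of MACROD2, 21.5 to 55.8%, lay below it with knockout 4 h cells counted. Without that library, 13 of 27 MACROD2 body regions (48.1%) were listed in all 5 libraries. The 95% interval of this share held the 61.3%. The share of the weak regions listed in those 5 libraries was not computed, so the MACROD2 share is not taken as a result about the gene. The body regions of MACROD2 were also the weakest of the 4 genes by median of mean rank, and the part of this was not tested.
Body regions moved in rank about as often as other weak regions. Of the 62, 37 moved for parental 2 h over control, 37 for parental 4 h over control, 33 for knockout 2 h over control, 42 for knockout 4 h over control, 37 for knockout over parental control, 41 for knockout over parental 2 h and 41 for knockout over parental 4 h cells, which is 53.2% to 67.7%. Among the 38565 regions no stronger than the best body region, 64.4%, 61.1%, 54.6%, 69.2%, 59.6%, 65.6% and 69.6% moved in the same 7 comparisons. These counts are therefore not a result about the genes.

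The body site whose rank varied least over the 5 libraries other than knockout 4 h, by 1693 places, was in IMMP2L at chr7:110888733-110889691, 313 kb from the promoter end. Its rank was 14465, 13018 and 6323 in knockout control, 2 h and 4 h cells, and 14711, 13999 and 14574 in parental control, 2 h and 4 h cells, with a −log10 p of 6.07 to 8.94. A second IMMP2L site at chr7:110352205-110353052 was also listed in all 6.
The strongest FHIT body site by mean rank, at chr3:60942611-60943383, lay 295 kb from the promoter end. Its rank was 14992, 15383 and 20487 in knockout control, 2 h and 4 h cells, and 13607, 12415 and 12183 in parental control, 2 h and 4 h cells. It ranked higher in each parental library than in all 3 knockout libraries. In control and in 2 h cells the genotypes differed here by less than the 10% rule, which was passed only at 4 h.
The WWOX site at chr16:78344220-78344990, 211 kb inside the gene, was at rank 9950, 9441 and 34675.5 in knockout control, 2 h and 4 h cells, and 11761, 19588 and 32732 in parental control, 2 h and 4 h cells. A wider WWOX site at chr16:79123175-79126008 was at rank 14285, 12520 and 22001 in knockout control, 2 h and 4 h cells, and 15612, 11566 and 17967 in parental control, 2 h and 4 h cells. Both sites had their lowest rank at 4 h in each genotype. The first was past the 10% rule at 4 h over control in both genotypes, and the wider site in knockout cells, where its rank fell by 7716 places.
The MACROD2 site at chr20:15028280-15029141, in the gene's densest stretch, was at rank 11294, 11212 and 21627 in knockout control, 2 h and 4 h cells, and 9623, 26015 and 13035 in parental control, 2 h and 4 h cells. Its −log10 p was 11.6, 3.71 and 7.08 in parental control, 2 h and 4 h cells.

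**Figure D5:**
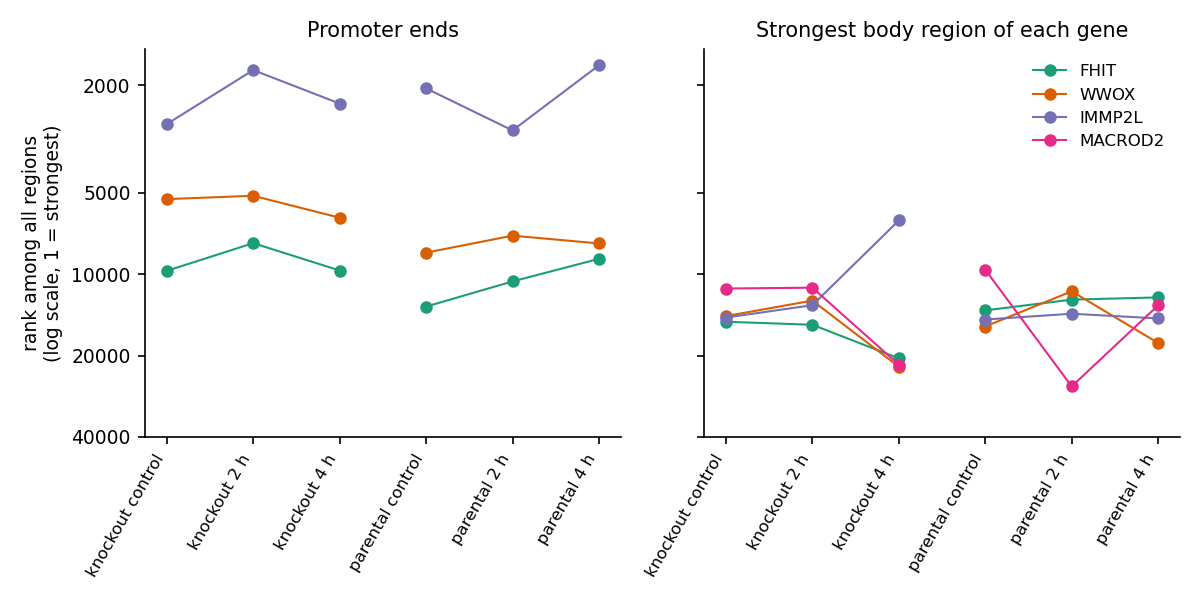
Rank among all 51668 regions (vertical axis, log scale, strongest at the top) by library, for the promoter ends of FHIT, WWOX and IMMP2L (left) and the body region of best mean rank of each gene (right). The promoter ends lie between 1684 and 13173, and the body sites between 6323 and 26015.

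By a rule chosen after the ranks were seen, body sites were taken where both knockout control and 2 h cells ranked ahead of all 3 parental libraries by over 10% of all places, or the reverse. Knockout cells were ahead at 5 of 62 sites (8.06%), against 5.31% of the 38565 regions no stronger than the best body region, and parental cells at 1 (1.61%), against 3.04%. These counts are small and near that background, so they are not a result about the genes. Apart from those of knockout 4 h cells, the values below are the ones the rule used, so they only describe the sites.
In FHIT these were chr3:59758119-59759545, near the 3′ end of the gene, and chr3:60033669-60034334. The first was at rank 13520, 13141 and 28942 in knockout control, 2 h and 4 h cells, and 19441, 39719 and 45254 in parental control, 2 h and 4 h cells. The second had a −log10 p of 5.93, 7.54 and 1.90 in knockout control, 2 h and 4 h cells, against 1.77 in parental control cells and no listed peak in parental 2 h or 4 h cells. At both FHIT sites the knockout 4 h value was below the other knockout values.
The WWOX site at chr16:79106948-79107663 had a −log10 p of 6.65, 10.2 and 2.16 in knockout control, 2 h and 4 h cells, and 2.18, 3.54 and 2.33 in parental control, 2 h and 4 h cells. At the FHIT and WWOX sites knockout control and 2 h cells were ahead by the rule itself, so only the knockout 4 h value was free. Of these sites, that value was above all 3 parental ones only at the second FHIT site. Its −log10 q there was 0, and many peaks of that list share its −log10 p of 1.90. The other 3 sites were in MACROD2, and the 1 ahead in parental cells was chr20:14501391-14502768.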

How the data were processed

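H3K27ac ChIP-seq was analysed in 6 CCRF-CEM libraries, 1 a group, grouped by the labels. Per the submitters' processing notes, MACS2 2.1.2, BWA 0.7.17, Picard 2.9.2, SAMtools 1.8, Trimmomatic 0.39 and Trim Galore 0.6.2 were used, on hg19. The sources used here give neither their settings nor the control of the peak calls. The authors deposited 1 peak list per library, so peaks were not called on pooled samples. Each peak's fold is the authors' deposited ratio over local background, its −log10 p and −log10 q are the deposited values, and the deposited score was used only to check the −log10 q. Read depth is unknown.

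Peaks were placed in spans by at least 1 bp overlap and counted with Python 3.11.15, pandas 2.3.3 and SciPy 1.17.1. Shares have 95% Wilson intervals, which cover counting error only. Tiles of 1 Mb with at least 10 peaks in each of the 2 libraries compared gave the background of the ratios, and calls were tested on simulated data. The 3 classes used tiles with at least 10 peaks in all 6 libraries. The shares of tiles sparser than a body used every tile with a peak in any library. The peaks and body sites named are the strongest by −log10 p or mean rank, or, where said, meet a rule chosen after seeing the data, as were the 3 classes of tiles. The members and lists were chosen with earlier results of these data known. 1 item named by the selection is not reported here. Other long fragile site genes and cell type markers were not analysed here, for lack of an hg19 annotation. Alternatives were the peak set, overlap, promoter length and ranking.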

Additional observations from a re-analysis of the deposited data

How the results depend on the processing

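No paired analysis was possible because the groups have 1 library each and so share fewer than 2 replicate numbers. An additive fit of genotype over the 3 conditions was not run. No alternative overlap or promoter length (2 kb or 10 kb) moved a body share or a count of marked promoter ends beyond counting error or 1.5 times. Without 200 bp peaks the 4 bodies held 0.126%, 0.125% and 0.122% of the list in knockout control, 2 h and 4 h cells, and 0.0943%, 0.0845% and 0.0905% in parental control, 2 h and 4 h cells, so the knockout lists stayed higher. Some intervals of the genotypes then overlapped, such as 0.112 to 0.143% in knockout control and 0.0788 to 0.113% in parental control cells. Among the 30000 peaks with the smallest p the shares were 0.113%, 0.0933% and 0.113% in knockout control, 2 h and 4 h cells, and 0.11%, 0.0867% and 0.07% in parental control, 2 h and 4 h cells, so the genotypes overlapped. At a −log10 q of at least 5 they were 0.0346%, 0.0657% and 0.0366% in knockout control, 2 h and 4 h cells, and 0.0290%, 0.0158% and 0.00776% in parental control, 2 h and 4 h cells. Knockout 4 h cells then had 1 marked promoter end at the q limit.

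The ratio of body shares over the 4 genes, among the 30000 peaks, was 1.03 for knockout over parental control, 1.08 for knockout over parental 2 h, 0.636 for parental 4 h over control and 0.824 for knockout 2 h over control. The WWOX ratios past 1.5 times were not past it there. WWOX was at 0.8 (0.316 to 2.03) for knockout over parental 2 h cells, from 8 and 10 peaks. It was at 0.999 (0.250 to 3.99) for knockout over parental 4 h cells, from 4 peaks in each. Both intervals held 1. The percent of each span covered by body peaks was also added up over the 4 genes, without weighting by length. The ratio of these sums was 2.06, 2.02 and 2.86 for knockout over parental control, 2 h and 4 h, and 0.820 for knockout 2 h over control. These are not scaled to the length of the list. By share of the covered length of the list, chosen after seeing the data, the ratio over the 4 genes was 1.41, 1.65 and 1.82 for knockout over parental control, 2 h and 4 h. The cause was not tested.

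Regions from the 15000 strongest peaks held 12 body regions. Of these, moved rank was found in 5 for parental 2 h over control (31.95% of all 18835 regions), 4 for parental 4 h over control (30.3%), 1 for knockout 2 h over control (21.8%), 8 for knockout 4 h over control (48.5%), 5 for knockout over parental control (29.3%), 7 for knockout over parental 2 h (35.2%) and 5 for knockout over parental 4 h cells (51.1%). With a gap of over 20% of places, the counts of 62 were 26 for parental 2 h over control (31.4% of all regions), 21 for parental 4 h over control (28.3%), 14 for knockout 2 h over control (23.005%), 26 for knockout 4 h over control (36.1%), 23 for knockout over parental control (26.7%), 25 for knockout over parental 2 h (32.1%) and 24 for knockout over parental 4 h cells (36.6%). Of the 62, these counts are 22.6% to 41.9%. Both backgrounds here are all regions, including strong ones that moved less often at the 10% gap. Regions as weak as those of the bodies were not set apart here, so these counts are not a result about the genes. Ranking by fold left all 7 counts within 1.5 times.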
